A study of Saccharomyces cerevisiae with 16 samples.

Results

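The 43 nuclear genes for the mitochondrial respiratory chain and ATP synthase were followed across all 16 RNA-seq libraries of the series. They were chosen by systematic name, with no expression value in the rule, as 43 of the 6717 genes in the count table. The choice was made with earlier results of these data known. They comprised 4 genes of complex II, 9 of complex III, 2 for cytochrome c, 9 of complex IV, 13 of ATP synthase and 6 for the inner-membrane dehydrogenases that pass electrons from NADH, lactate and glycerol-3-phosphate into the chain. The study compared petite yeast with grande yeast, in YM or in YPD, with 4-methylcyclohexane methanol (MCHM, an industrial chemical) or without it. Both strains were S96, a MATa lys5 laboratory strain. The petite strain had been made from S96 with ethidium bromide, so the comparison of strains rests on a single petite line and a single grande line. MCHM was given at 0.055% (v:v) and cells were harvested after 2.5 h according to the sample labels, although the study's text gives a shorter exposure. YPD is rich medium with glucose. YM is minimal medium, which was supplemented with lysine for the S96 strains. The study's text does not name the carbon source of YM. The 8 groups were petite YM with MCHM, petite YM untreated, petite YPD with MCHM, petite YPD untreated, grande YM with MCHM, grande YM untreated, grande YPD with MCHM and grande YPD untreated, each with 2 libraries from separate cultures. Each culture was split into a treated and an untreated part, so the MCHM comparisons are paired by culture.

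Grande yeast carry mitochondrial DNA, which encodes core subunits of complexes III and IV and of ATP synthase. Petite yeast have lost functional mitochondrial DNA, cannot assemble a working chain and live by fermentation, although the nuclear genes for the remaining subunits are intact. Budding yeast has no proton-pumping complex I. Electrons enter from single-protein NADH dehydrogenases, from complex II (succinate dehydrogenase), and from the lactate and glycerol-3-phosphate dehydrogenases, pass through complex III, cytochrome c and complex IV to oxygen, and the proton gradient drives ATP synthase. Glucose represses most of these genes, and the Hap2/3/4/5 complex, whose HAP4 subunit activates transcription, binds CCAAT sequences in many of their promoters.

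Libraries held between 2015485 and 5694566 counts, with a median of 3662481. All 43 members passed the filter on low counts, and together they took between 0.355% and 1.21% of a library. For the 8 genes of the mitochondrial genome in the table, petite libraries held 0 counts and no grande library held more than 8, which made them a weak check of the strain labels. Levels are given as CPM, counts scaled to a common library size after TMM normalisation. A gene was called changed when edgeR's quasi-likelihood test gave an adjusted p under 0.05, over the 5856 genes tested, and the change was at least 2-fold. Fold changes are log2 values ± SE. The SE was derived from the test, as the absolute log2 fold change divided by the square root of its F statistic. With 2 cultures per group, the common biological coefficient of variation was 29.5%. Leaving out a library leaves 1 in its group. A call lost in such a fit therefore does not by itself show a weakness particular to that gene.

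The cultures of a group were not interchangeable for these genes. Column names in the count table number the cultures from 1 to 14, and within each group 1 culture came from a lower-numbered and 1 from a higher-numbered set. The geometric mean of the 43 members was lower in the higher-numbered culture in 8 of 8 groups, the differences running from -1.28 to -0.24 on the log2 scale with a median of -0.57. What the numbers stand for is not given in the sources used here. The higher-numbered culture also had more total counts in each group, for example 4082636 against 2239640 in untreated petite YPD. Sample numbers in the column names also recur between the sets. A difference between the sets therefore cannot be told apart from one of sequencing depth or of library handling. Over all genes, the differences between the cultures of a group correlated with those of other groups that shared no culture, with r between 0.026 and 0.735 and over 0.1 in 23 of 24 pairs of groups. Results below are therefore given with both cultures, the median difference of the members is given within each set for each pairwise comparison, and calls of a fit with a block are given where they change the reading. The block was the shared culture for MCHM and the culture set elsewhere.

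**Figure D1:**
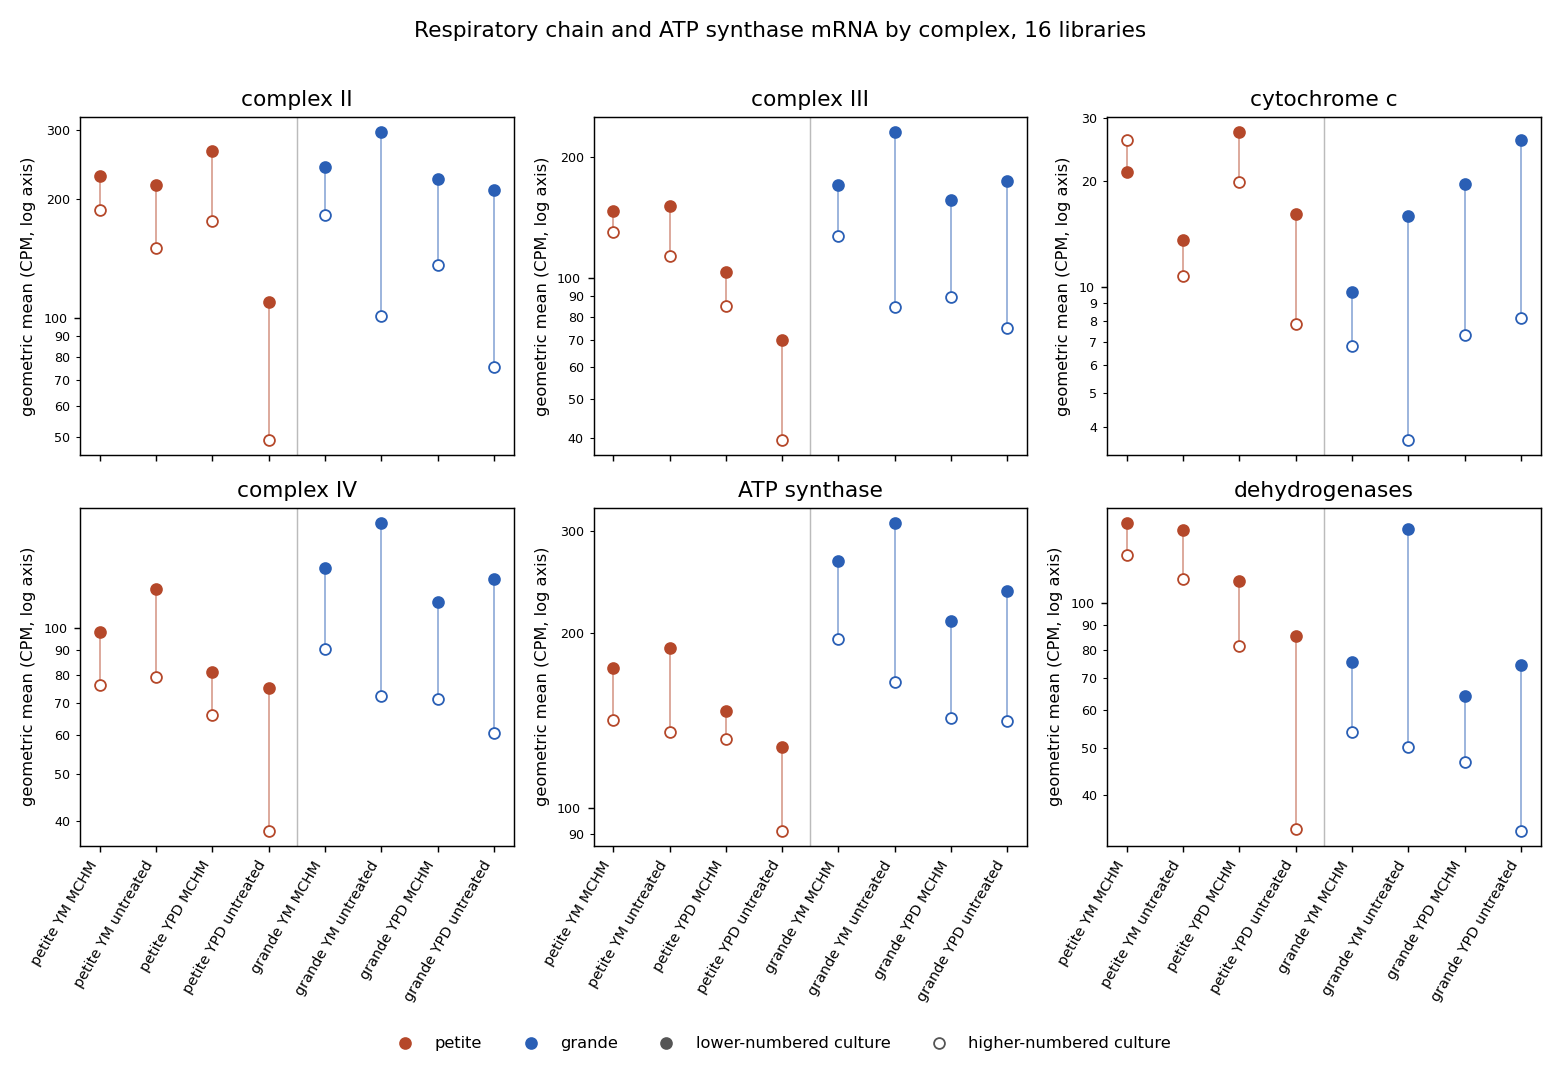
Geometric mean level of each complex in the 16 libraries (CPM, log axis), with the 4 petite groups to the left of the 4 grande groups in each panel. Filled points are the lower-numbered and open points the higher-numbered cultures, joined by a line within a group. ATP synthase in untreated YPD, for example, was 127 and 91.3 CPM in petite yeast and 235.9 and 141 CPM in grande yeast.

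Levels differed widely between subunits. Per kilobase of coding sequence, averaged over the 16 libraries, the highest member was ATP15, the epsilon subunit of ATP synthase, at 1147 CPM per kb, followed by COX9 of complex IV at 1013 CPM per kb. ATP2, the catalytic beta subunit of ATP synthase, ranked 3 at 907 CPM per kb. This order rests on the division by length. The coding sequences have 189 bases in ATP15, 180 in COX9 and 1536 in ATP2. Without the division, ATP2 averaged 1393 CPM, ATP15 217 CPM and COX9 182 CPM. The highest members of the other complexes were QCR9 of complex III (560 CPM per kb), SDH3 of complex II (438 CPM per kb), NDE1, an external NADH dehydrogenase (183 CPM per kb), and CYC1, the main cytochrome c gene (127 CPM per kb). The lowest were SDH1 in complex II (72.3 CPM per kb), CYT1 in complex III (109 CPM per kb), COX12 in complex IV (188 CPM per kb) and ATP20 in ATP synthase (143 CPM per kb). The lowest of all were CYC7, the minor cytochrome c gene, at 20.3 CPM per kb, and NDE2, the second external NADH dehydrogenase, at 20.6 CPM per kb. The order of low members differed between groups. In untreated petite YM, NDE2 averaged 67.3 CPM per kb, above CYC1 at 42.7 CPM per kb and CYB2 at 25.4 CPM per kb, and in petite YPD with MCHM the highest dehydrogenase was DLD1, at 284 CPM per kb, with NDE1 at 130.1 CPM per kb. No member overlapped another annotated gene, which matters because the libraries carried no strand information.

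The promoters were rich in the letters bound by the Hap2/3/4/5 complex. In the R64 genome, the 250 bases before the start codon held CCAAT on either strand in 35 of 43 members (81.4%), against 2126 of 6001 protein-coding genes (35.4%). The longer form TNATTGGT, which contains the reverse complement of CCAAT and so overlaps it, was present in 17 of 43 members (39.5%) and in 260 of the 6001 genes (4.33%). The Hap1 motif occurred before 1 member, QCR6, and before 6 of the 6001 genes (0.1%). Within these 250 bases, all 4 complex II genes and 12 of 13 ATP synthase genes held CCAAT, whereas neither cytochrome c gene did. NDE2 held none of the 3 motifs there. Bases further upstream were not searched, so a gene without a match may hold one beyond the window. Stretches around the matches are shown for 7 members that recur in the comparisons or stand for their complex, 5′ to 3′ on the gene's strand, with the bases of a match in capitals.
QCR6: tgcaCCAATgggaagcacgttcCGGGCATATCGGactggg
SDH2: ggcctcgcATTGGcCCAATtagctccg
COX6: aagggaccTAATTGGTccggtcaa
ATP2: aggacaggCCAATTGGataaattt
DLD1: cttccctgCCAATcccacgtc
CYB2: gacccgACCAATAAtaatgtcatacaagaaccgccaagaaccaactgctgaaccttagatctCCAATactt
NDI1: tcattcggACCAATCAtatgaagg
In R64 these lie at chrVI:224977-225016 on the minus strand (QCR6), chrXII:54073-54099 minus (SDH2), chrVIII:209480-209503 plus (COX6), chrX:647414-647437 plus (ATP2), chrIV:147776-147796 minus (DLD1), chrXIII:167433-167503 minus (CYB2) and chrXIII:30020-30043 minus (NDI1), all upstream of the coding sequence. A match describes the letters only.

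The first question was whether the loss of mitochondrial DNA came with a different level of the nuclear partners. In untreated YPD, 38 of 43 members had a fold change below 0 in petite yeast, against 49.5% of all genes tested. Their median was -0.80, while that of all genes was 0.003. The geometric mean of the members was 85.3 and 46.8 CPM in petite yeast, against 148 and 70.1 CPM in grande yeast, so the petite culture with more mRNA was above the grande culture with less. No member passed the test, and none of the 5856 genes did (0%). At an unadjusted p under 0.05, 14 members were lower and 0 higher, beside 0.786% of all genes lower and 2.6% in either direction, and DESeq2 also called 0 members. In 16 members both petite libraries lay below both grande libraries, beside 10.3% of all genes.

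Complex III was the lowest, with a median of -1.22 over its 9 genes. The medians were -0.84 for complex II, -0.81 for ATP synthase, -0.75 for complex IV and -0.49 for cytochrome c, while the dehydrogenases had a median of 0.36. The cytochrome c median, here and below, is that of only 2 genes. QCR2, a core protein of complex III, had 91.2 and 58.4 CPM in petite yeast, against 249 and 141 CPM in grande yeast, a log2 fold change of -1.38 ± 0.39 (adjusted p = 0.923). COX4, a subunit of complex IV, had 109 and 45.1 CPM in petite yeast and 298 and 129 CPM in grande yeast, -1.48 ± 0.57 (adjusted p = 1). Groups of these genes did not overlap, yet neither passed the test. ATP1, the alpha subunit of ATP synthase, had 361 and 317 CPM in petite yeast, against 743 and 550 CPM in grande yeast, -0.93 ± 0.28 (adjusted p = 1).

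Within the lower-numbered cultures the median difference of the 43 members was -0.90, and within the higher-numbered cultures it was -0.66. Leaving out grande culture 1, which was high for these genes, moved the median to -0.20, and leaving out petite culture 2 moved it to -1.27, so its size rested on single libraries.

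With MCHM in YPD the median was -0.31, and 30 of 43 members were below 0 beside 52.2% of all genes. Of the members, 1 was called, beside 1.52% of all genes. It was DLD1 (YDL174C, chromosome IV, 145826 to 147589 in R64), the mitochondrial D-lactate dehydrogenase, which reduces cytochrome c. DLD1 had 580 and 422 CPM in petite yeast with MCHM, against 113 and 73.2 CPM in grande yeast with MCHM. The groups were far apart and the log2 fold change was 2.43 ± 0.42 (adjusted p = 0.017). Leaving out any of the 4 libraries ended the call, with fold changes of 2.16 to 2.84 and adjusted p of 0.121 to 0.175, and 0 of all genes were called in this comparison with 3 libraries. CYB2 (YML054C, chromosome XIII, 165533 to 167308), which oxidises L-lactate and also reduces cytochrome c, had 65.3 and 49.7 CPM in petite yeast and 26.3 and 23.9 CPM in grande yeast, 1.19 ± 0.31 (adjusted p = 0.0952). With the culture set as a block, CYB2 was also called (adjusted p = 0.0195). The median difference of the members was -0.47 within the lower-numbered and -0.08 within the higher-numbered cultures, and their median fold change turned to 0.18 without grande culture 1.

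In untreated YM the median was -0.34 and 34 of 43 members were below 0, beside 46.4% of all genes. The median difference was -0.56 within the lower-numbered cultures and 0.09 within the higher-numbered ones, so the sets went in opposite directions. Of the members, 2 were called, beside 10.7% of all genes. With the culture set as a block, 7 were called, 3 higher and 4 lower, beside 14.8% of all genes. NDE2 (YDL085W, chromosome IV, 303211 to 304848) rose in petite yeast, with 104.6 and 116 CPM against 29.9 and 9.89 CPM in grande yeast, 2.48 ± 0.60 (adjusted p = 0.0191). ATP2 (YJR121W, chromosome X, 647607 to 649142) fell, with 1025 and 895.6 CPM in petite yeast against 2874 and 1817 CPM in grande yeast, -1.29 ± 0.31 (adjusted p = 0.0187). Both genes were clear of overlap, which with 2 libraries per group is a weak criterion. The call of NDE2 was lost without grande culture 13 (1.84, adjusted p = 0.156) and without either petite culture (adjusted p = 0.061 and 0.067), and that of ATP2 without grande culture 5 (-1.03, adjusted p = 0.071) or either petite culture (adjusted p = 0.076 and 0.104). Neither was called when only the groups compared were fitted. The median of the members turned to 0.24 without grande culture 5, whose geometric mean of the members, 198 CPM, was the highest of the 16 libraries.

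With MCHM in YM, 2 members were called, beside 3.72% of all genes, and both oxidise lactate. DLD1 had 587 and 465 CPM in petite yeast, against 82.2 and 116 CPM in grande yeast, 2.40 ± 0.42 (adjusted p = 0.0141). CYB2 had 107 and 136 CPM in petite yeast and 46.5 and 41.2 CPM in grande yeast, 1.47 ± 0.30 (adjusted p = 0.025). Leaving out any of the 4 libraries ended both calls, with adjusted p up to 0.080 for DLD1 and 0.183 for CYB2, while the fold changes stayed between 2.20 and 2.70 and between 1.29 and 1.63. The median of all 43 members was -0.25, with 30 below 0 beside 50.8% of all genes, and the median difference was -0.39 within the lower-numbered and -0.22 within the higher-numbered cultures. The median fold change turned to 0.06 with scaling by library size alone, which moved the median of all genes to 0.31.

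ATP synthase kept 1 direction between the strains. All 13 of its genes were below 0 in petite yeast in each of the 4 conditions. In each condition taken alone, between 46.4% and 52.2% of all genes were. The share of all genes below 0 in all 4 was not counted. The treated and untreated libraries share cultures, so these are not 4 independent comparisons. Its medians were -0.57 in YM with MCHM, -0.46 in untreated YM, -0.33 in YPD with MCHM and -0.81 in untreated YPD. With scaling by library size alone they were -0.26, -0.21, -0.19 and -0.78, and only in YPD with MCHM did leaving out 1 library, grande culture 1, bring the median to 0.01. ATP2 had the lowest fold change of the 13 in untreated YM and ATP5, a stalk subunit, in YM with MCHM, where ATP5 had 240 and 138 CPM in petite yeast and 431 and 316 CPM in grande yeast, -0.98 ± 0.37 (adjusted p = 0.152). Apart from ATP2 in untreated YM, no ATP synthase gene was called between the strains in the main test, and with the culture set as a block ATP5 was also called in YM with MCHM (-1.01 ± 0.18, adjusted p = 0.0059).

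**Figure D2:**
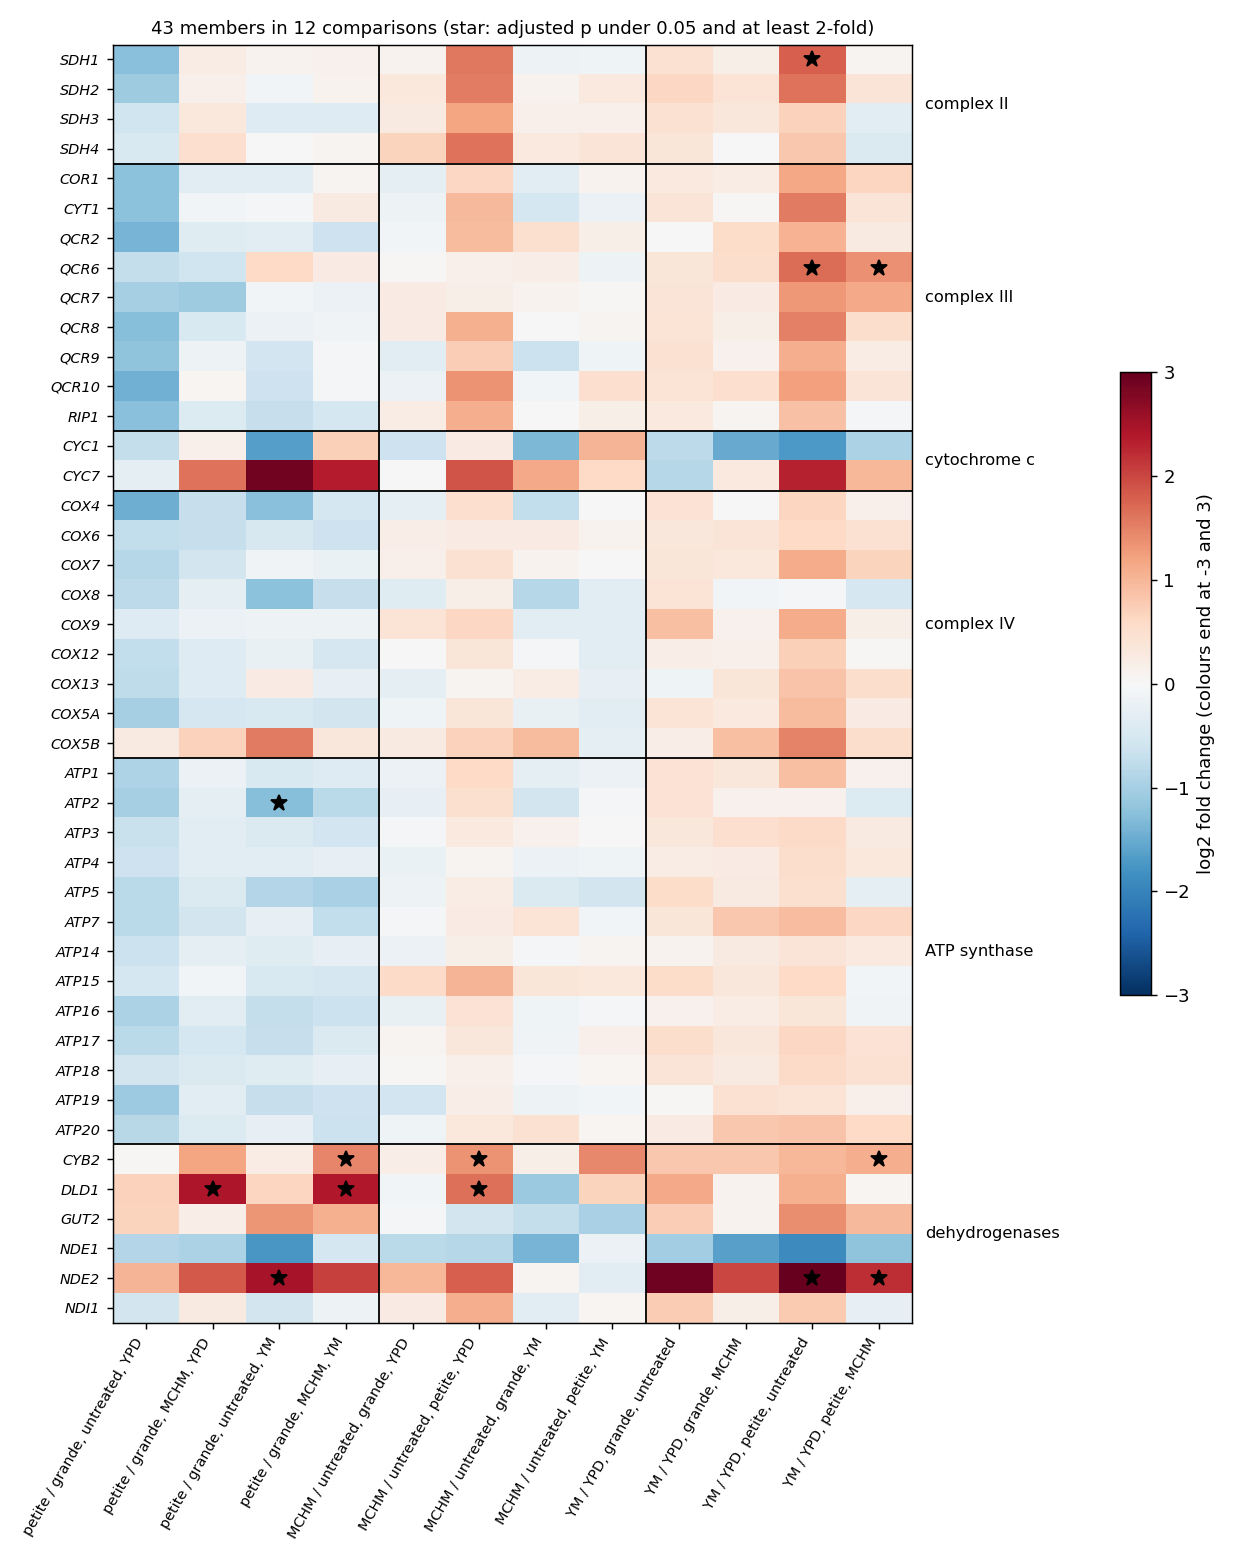
Log2 fold changes of the 43 members, in rows by complex, in the 12 pairwise comparisons, in columns by strain, MCHM and medium. Red is higher and blue lower in the group named first, and stars mark called members. The rows of ATP synthase are blue in all 4 strain comparisons, and the stars fall on 6 genes, 3 of them dehydrogenases.

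The next question was whether MCHM changed these genes. In grande yeast in YPD 0 of 43 members were called, beside 2.19% of all genes, and 0 members had an unadjusted p under 0.05, beside 16.3%. DESeq2 and the fit paired by culture also called 0. The median was -0.03, with -0.17 within culture 1 and 0.14 within culture 9. In grande yeast in YM 0 members were called, beside 5.07% of all genes, 2 members had an unadjusted p under 0.05, beside 22.3%, and DESeq2 called 0. The median difference of the members was -0.36 within culture 5 and 0.49 within culture 13. The 2 with a low unadjusted p were DLD1, with 82.2 and 116 CPM with MCHM and 274 and 155 CPM untreated (-1.11 ± 0.41, adjusted p = 0.129), and CYC1, with 14.8 and 20.0 CPM with MCHM and 62.9 and 26.7 CPM untreated (-1.36 ± 0.57, adjusted p = 0.18). In the fit paired by culture NDE1 fell, at -1.19 ± 0.28 (adjusted p = 0.0313), against -1.39 ± 0.88 without pairing (adjusted p = 0.386), which came to -0.03 without the untreated library of culture 5.

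In petite yeast in YPD the members were higher with MCHM. In all, 41 of 43 had a fold change above 0, beside 48.3% of all genes, and the median was 0.47. The geometric mean of the members was 113 and 91.4 CPM with MCHM, against 85.3 and 46.8 CPM untreated. By complex, the medians were 1.57 for complex II, 1.21 for the dehydrogenases, 1.07 for cytochrome c, 0.94 for complex III, 0.37 for complex IV and 0.30 for ATP synthase. The cytochrome c value rests on 2 genes, of which CYC7 had only 11 and 4 counts untreated. CYC1 had 62.8 and 47.5 CPM with MCHM, against 51.3 and 42.0 CPM untreated. Within culture 2 the 43 members had a median difference of 0.29 and within culture 10 of 0.88. Without the untreated library of culture 10, which had the lowest levels, the median fell to 0.19, and without that of culture 2 it was 0.98.

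Of these members 2 were called, beside 9.32% of all genes. DLD1 had 580 and 422 CPM with MCHM, against 221 and 99.3 CPM untreated, 1.65 ± 0.41 (adjusted p = 0.0253). CYB2 had 65.3 and 49.7 CPM with MCHM and 28.3 and 17.6 CPM untreated, 1.34 ± 0.31 (adjusted p = 0.0196). Neither gene overlapped between treatments, and both MCHM libraries lay above both untreated ones in 26.8% of all genes. The call of DLD1 was lost without either MCHM library (adjusted p = 0.120 and 0.062) or the untreated library of culture 10 (1.18, adjusted p = 0.176), and that of CYB2 without the MCHM library of culture 2 (adjusted p = 0.0997) or the untreated library of culture 10 (adjusted p = 0.160). When only the groups compared were fitted, 0 members were called.

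Pairing by culture raised the count to 12 members, all higher with MCHM, beside 13.4% of all genes in the same fit. DESeq2 without pairing called 6, beside 12.3% of the genes it gave an adjusted p. The 12 included all of complex II. SDH1 (YKL148C, chromosome XI, 169207 to 171129), the flavoprotein, had 162 and 145 CPM with MCHM, against 77.2 and 25.4 CPM untreated, 1.78 ± 0.44 in the paired fit (adjusted p = 0.0218). SDH2, the iron-sulphur protein, had 172 and 129 CPM with MCHM and 70.6 and 33.3 CPM untreated, 1.62 ± 0.32 (adjusted p = 0.0091). The membrane anchors followed: SDH4 had 443 and 199 CPM with MCHM against 145 and 62.2 CPM untreated, and SDH3 had 400 and 258 CPM with MCHM against 184 and 107 CPM untreated. Both MCHM libraries lay above both untreated libraries for all 4 genes, as for 20 of the 43 members, beside 26.8% of all genes. The others, besides DLD1 and CYB2, were RIP1, QCR8 and QCR10 of complex III, ATP15, NDE2 and NDI1, the internal NADH dehydrogenase. DESeq2 called SDH1, SDH2, NDE2 and ATP15 of these. Without pairing, the adjusted p of the 4 complex II genes ranged from 0.09 to 0.164.

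In petite yeast in YM 0 members were called, beside 0.546% of all genes, and the median was 0.001, with -0.10 within culture 6 and 0.21 within culture 14. CYB2 was the 1 member with an unadjusted p under 0.05, beside 7.84% of all genes. It had 107 and 136 CPM with MCHM, against 48.9 and 41.3 CPM untreated, 1.43 ± 0.30 (adjusted p = 0.06). It was called in the fit paired by culture (adjusted p = 0.0216), by DESeq2 (adjusted p = 0.0016) and without the filter on low counts (adjusted p = 0.0421).

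Whether the MCHM change differed between strains or media was tested by interaction terms. No member was called in any of the 5 tests of a difference, where 0.529% of all genes were for the strain difference between media, 0% and 0.0171% for the MCHM change between strains in YPD and in YM, and 0% and 0.461% for the MCHM change between media in grande and in petite yeast. The unadjusted p was under 0.05 for 2 members in the test of the MCHM change between petite and grande yeast in YPD and for 3 in that in YM, beside 4.35% and 8.61% of all genes. It was under 0.05 for 0 members in the test between media in grande yeast, for 2 in that between media in petite yeast and for 1 in that of the strain difference between media, beside 7.53%, 13.5% and 15.9%. DLD1 had a difference of 1.73 ± 0.57 between petite and grande yeast in YPD (adjusted p = 0.852) and of 1.77 ± 0.57 in YM (adjusted p = 0.344). DESeq2 called the first of these (1.77, adjusted p = 0.0382) and no other member in any of the 5. In that test in YPD, DESeq2 gave an adjusted p to 831 genes, against 5856 in the main test, and called 6.62% of the 831. The rise of DLD1 with MCHM in petite YPD cultures was therefore not shown by the main test to differ from its change in grande cultures.

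**Figure D3:**
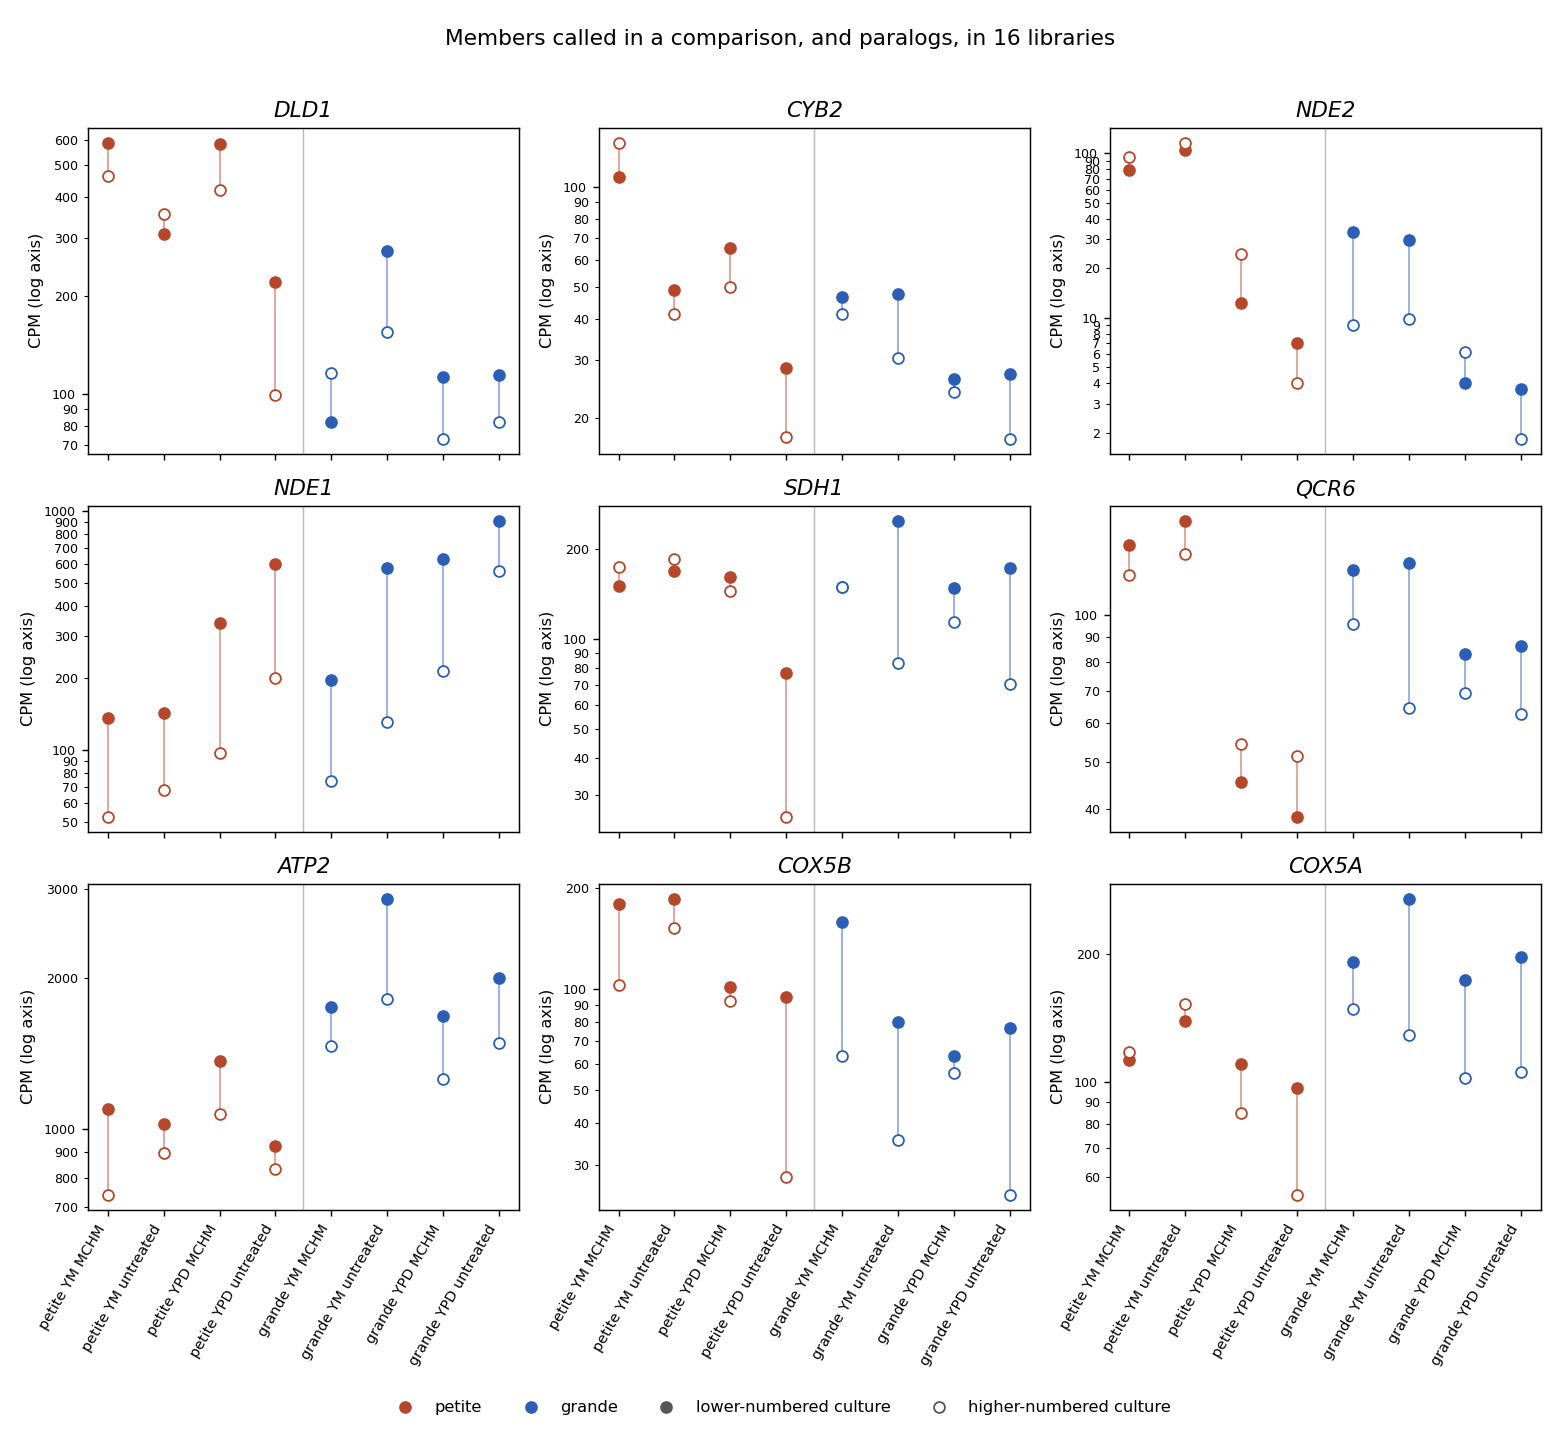
Levels of the 6 called members and of NDE1, COX5A and COX5B in the 16 libraries (CPM, log axis), petite groups on the left of each panel. Filled points are lower-numbered and open points higher-numbered cultures. DLD1 lay between 422 and 587 CPM in the 4 petite libraries with MCHM and between 73.2 and 274 CPM in the 8 grande libraries.

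The third question was the effect of the medium. In grande yeast the members had medians of 0.39 untreated and 0.28 with MCHM in YM against YPD, with 38 of 43 above 0 in each comparison, beside 49.5% of all genes untreated and 52.2% with MCHM. No member was called, beside 2.6% of all genes untreated and 0.427% with MCHM, and 3 members had an unadjusted p under 0.05 in each comparison, beside 18.2% and 13.3%. DESeq2 called NDE2 in the untreated cells, which had 29.9 and 9.89 CPM in YM against 3.69 and 1.84 CPM in YPD, 2.91 ± 0.75 in the main test (adjusted p = 0.0611). With the culture set as a block NDE2 was called too (adjusted p = 0.034), and NDE1 fell in YM in both treatments (-1.38 ± 0.29 untreated, adjusted p = 0.014, and -1.60 ± 0.29 with MCHM, adjusted p = 0.012). The median difference of the members was 0.46 within the lower-numbered and 0.28 within the higher-numbered cultures untreated, and 0.16 and 0.44 with MCHM. Without grande culture 5 in YM the untreated median turned to -0.33.

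In untreated petite yeast 40 of 43 members were above 0 in YM, beside 48.6% of all genes, with a median of 0.87. The geometric mean was 141 and 102 CPM in YM, against 85.3 and 46.8 CPM in YPD, with no overlap. Both YM libraries lay above both YPD libraries in 29 members, beside 28.8% of all genes. Complexes II and III had the highest medians, 1.22 and 1.23, against 1.02 for the dehydrogenases, 0.85 for complex IV, 0.57 for ATP synthase and 0.30 for cytochrome c. Leaving out single libraries moved the median of the members between 0.53 and 1.41, the extremes coming without YPD culture 10 and without YPD culture 2. The median difference was 0.76 within the lower-numbered and 1.21 within the higher-numbered cultures.

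Of these members 3 were called, beside 15.2% of all genes. With the culture set as a block, 21 were called, 19 higher and 2 lower, beside 19.7% of all genes. They included 8 of the 9 genes of complex III, SDH1 and SDH2 among the higher, and NDE1 and CYC1 as the lower. DESeq2, without a block, called 11 members, beside 16.8% of the genes it gave an adjusted p. NDE2 had 104.6 and 116 CPM in YM, against 6.98 and 4.04 CPM in YPD, 4.36 ± 0.68 or 20.6-fold (adjusted p = 0.0015). QCR6 (YFR033C, chromosome VI, 224326 to 224769), the acidic hinge protein of complex III and the member with the Hap1 motif printed above, had 156 and 133 CPM in YM, against 38.6 and 51.5 CPM in YPD, 1.68 ± 0.32 (adjusted p = 0.0041). These calls held when any of the 4 libraries was left out. SDH1 had 169 and 185 CPM in YM and 77.2 and 25.4 CPM in YPD, 1.802 ± 0.57 (adjusted p = 0.0439), and its call was lost without either YM culture (adjusted p = 0.097 and 0.136) or YPD culture 10 (1.19, adjusted p = 0.260). ATP1 and CYB2 had adjusted p of 0.0426 each but changed by less than 2-fold, 0.91 ± 0.28 and 0.99 ± 0.31.

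With MCHM, petite yeast in YM against YPD had a median of 0.28, with 0.25 within the lower-numbered and 0.24 within the higher-numbered cultures, and 3 members were called beside 5.14% of all genes. NDE2 had 79.2 and 94.2 CPM in YM against 12.3 and 24.4 CPM in YPD, 2.23 ± 0.59 (adjusted p = 0.0444). QCR6 had 139 and 121 CPM in YM and 45.4 and 54.5 CPM in YPD, 1.37 ± 0.31 (adjusted p = 0.0251). CYB2 had 107 and 136 CPM in YM and 65.3 and 49.7 CPM in YPD, 1.09 ± 0.30 (adjusted p = 0.0495). All 3 calls were lost when any of the 4 libraries was left out, with adjusted p up to 0.300 for NDE2, 0.196 for QCR6 and 0.276 for CYB2. Scaling by library size alone left 1 of them.

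Paralogs within the chain were set against each other in the same library, where the scaling between libraries cancels. COX5A and COX5B encode alternative forms of subunit 5 of complex IV, of which COX5A is the aerobic and COX5B the hypoxic one. The ratio of COX5B to COX5A counts ranged from 0.507 to 1.59 in the 8 petite libraries, with a median of 0.986, and from 0.231 to 0.829 in the 8 grande libraries, with a median of 0.376. In untreated YM the ratio was 1.34 and 0.997 in petite yeast, against 0.296 and 0.276 in grande yeast. The petite range was clear of the grande range in each of the 4 conditions. Of all 903 pairs of members, 12.6% were apart in 1 direction in all 4 conditions, which is the background for this count. The ratio of DLD1 to CYB2, both lactate dehydrogenases, was likewise higher in petite yeast in all 4. Treated and untreated libraries share cultures, so the 4 conditions are not independent. As single genes in untreated YM, COX5B had 186 and 152 CPM in petite yeast and 79.95 and 35.6 CPM in grande yeast, 1.55 ± 0.65 (adjusted p = 0.132), and COX5A differed by -0.45 ± 0.41 (adjusted p = 0.5), which turned to 0.06 without grande culture 5. With the culture set as a block COX5B was called (1.67 ± 0.39, adjusted p = 0.0088).

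NDE1 and NDE2 both oxidise cytosolic NADH at the outer face of the inner membrane. The strains did not overlap in the count ratio of NDE2 to NDE1 in any of the 4 conditions, beside the same 12.6% of pairs of members. The ratio ranged from 0.0117 to 1.79 in petite libraries and from 0.0033 to 0.168 in grande libraries. It was highest in petite yeast in YM, at 0.582 and 1.79 with MCHM and 0.732 and 1.7003 untreated, against 0.0361 and 0.250 in petite YPD with MCHM and 0.0117 and 0.0201 in petite YPD untreated. NDE1 had the opposite sign to NDE2 in YM against YPD, with 143 and 68.2 CPM in YM and 597 and 201 CPM in YPD in untreated petite yeast, -1.92 ± 0.89 (adjusted p = 0.153). It did not pass the main test, and with the culture set as a block it did (-1.80 ± 0.29, adjusted p = 0.00084). The same block called NDE1 lower in petite than in grande yeast in untreated YM (-1.52 ± 0.29, adjusted p = 0.0040).

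For cytochrome c, CYC7 was near the limit of counting. It had 20.1 and 5.23 CPM in untreated petite YM, and 3.49 and 0 CPM in untreated grande YM. The fold change of CYC7 was 2.90 ± 1.21 (adjusted p = 0.13), and the count of 0 in 1 library makes its size depend on the prior count. With the culture set as a block CYC7 was called between strains in untreated YM (2.91 ± 0.78, adjusted p = 0.0187). The same block called it in YM with MCHM (2.72 ± 0.67, adjusted p = 0.0205). CYC1 had 8.48 and 19.7 CPM in untreated petite YM, against 62.9 and 26.7 CPM in untreated grande YM, -1.65 ± 0.57 (adjusted p = 0.0729). It had 51.3 and 42.0 CPM in untreated petite YPD, so untreated petite yeast had less CYC1 in YM than in YPD, -1.72 ± 0.57 (adjusted p = 0.054), opposite in sign to 40 of the 43 members. CYC1 was called by DESeq2 in both comparisons. The count ratio of CYC7 to CYC1 ranged from 0.0226 to 2.36 in petite libraries and from 0 to 0.382 in grande libraries, and the strains overlapped in untreated YPD, with 0.088 and 0.0226 in petite yeast and 0.0492 and 0.0247 in grande yeast.

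The 2 culture sets were then compared gene by gene. The higher-numbered culture had less mRNA than the lower-numbered culture in all 8 groups for 24 of 43 members (55.8%), against 377 of the 5856 genes tested (6.44%). The mean difference over groups had a median of -0.63 over the members and of 0.02 over all genes. It was -1.44 for NDE1, -1.15 for QCR10 and -1.15 for SDH4, and close to 0 for COX6, at -0.10. HAP4 moved with them. In untreated YPD, HAP4 had 32.1 CPM in petite culture 10 and 267 CPM in petite culture 2, and 47.0 CPM in grande culture 9 and 310 CPM in grande culture 1. HAP4 was higher in the lower-numbered culture in 8 of 8 groups, by 1.73 to 8.33 times, and was not called in any comparison between conditions, where its SE was at least 1.14. Members with TNATTGGT had a median difference of -0.63 and those without it of -0.61, and among the other genes tested the medians were -0.05 with the motif and 0.02 without it. Members without TNATTGGT can still hold CCAAT. The median was -0.63 in the 35 members with CCAAT and -0.56 in the 8 without it. Among the other genes tested it was 0.02 with CCAAT and 0.01 without it. The parts of HAP4 and of sequencing depth in the difference between cultures were not tested.

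**Figure D4:**
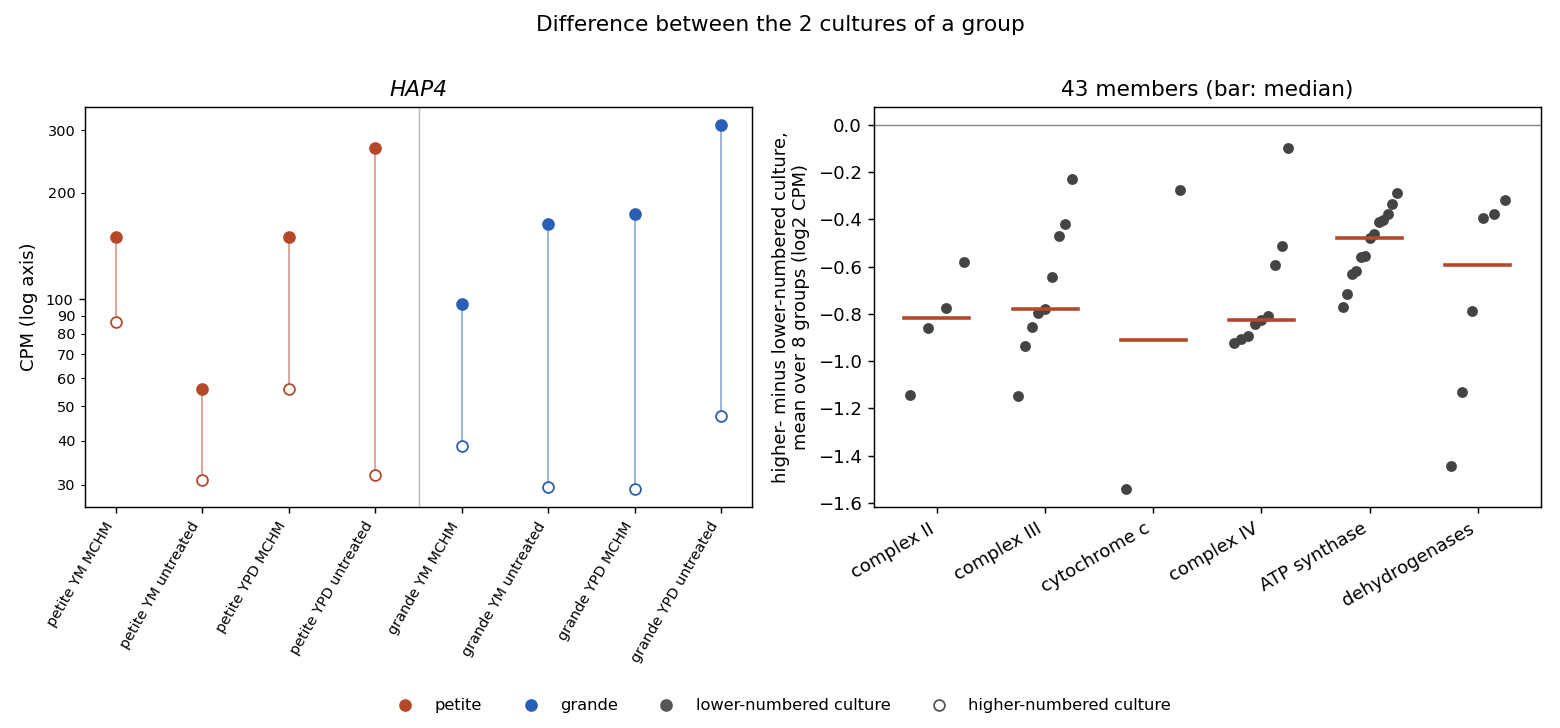
Left, HAP4 in the 16 libraries (CPM, log axis), with filled points for lower-numbered and open points for higher-numbered cultures. HAP4 was lower in the higher-numbered culture in 8 of 8 groups. Right, the difference of higher-numbered minus lower-numbered culture for each of the 43 members, averaged over 8 groups (log2 CPM), with bars at the median of each complex. All 43 points are below 0.

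Around the chain itself, 88 further genes for assembly, cofactors, carriers and regulation were counted. With MCHM in petite YPD, 5 of 88 rose, beside 4.08% of all genes higher, and 0 fell. A count of this size is near that of all genes. They were SHY1 and COX15, which serve the assembly of complex IV and its heme A (1.56 ± 0.35 and 1.24 ± 0.37, adjusted p = 0.018 and 0.0499), MZM1, which guards the Rieske protein before its insertion into complex III (1.12 ± 0.30, adjusted p = 0.0357), COQ6 of ubiquinone synthesis (1.14 ± 0.30, adjusted p = 0.0301), and SHH4, a paralog of SDH4 (1.22 ± 0.31, adjusted p = 0.0274). The calls of COX15, MZM1 and COQ6 were lost when any of the 4 libraries was left out, and those of SHY1 and SHH4 without either MCHM library or the untreated library of culture 10 (adjusted p up to 0.147 for SHY1 and 0.233 for SHH4). In grande yeast MCHM changed 0 of 88 in either medium by this rule, beside 2.19% of all genes in YPD and 5.07% in YM. Between the strains, 0 of 88 were called in YPD, treated or untreated, beside 1.52% of all genes with MCHM and 0% untreated. In untreated YM 3 were called, beside 10.7% of all genes, and in YM with MCHM 2, beside 3.72%. SHH4, the regulator CAT8 and the heme synthesis gene HEM12 made up the 3 (3.16, 1.40 and -1.20), and SHH3, a paralog of SDH3, and SHH4 the 2 (2.42 and 1.10). Of these, SHH4 in untreated YM kept its call when single libraries were left out, whereas CAT8, HEM12 and SHH3 were lost without grande culture 13 (adjusted p = 0.120, 0.078 and 0.061), CAT8 also without petite culture 6 (0.058) and HEM12 without petite culture 14 (0.087), and SHH4 in YM with MCHM was lost without any of the 4. In petite yeast in YM, MCHM lowered SHH4, the 1 listed gene called there, beside 0.546% of all genes (-2.15 ± 0.28, adjusted p = 0.0048). Without the MCHM library of culture 14 the change was -1.97 and the call was lost.

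In untreated petite yeast in YM against YPD, 9 of the 88 genes rose and 6 fell, near the 9% of all genes higher and 6.22% lower. SHH4 had the largest change, with 293 and 215 CPM in YM and 12.7 and 7.36 CPM in YPD, 4.69 ± 0.33 (adjusted p = 1.8e-05). AAC3, an ADP/ATP carrier of cells without oxygen, fell (-3.08 ± 0.74, adjusted p = 0.0134). It had 1.54 and 5.23 CPM in YM, near the limit of counting, against 12.7 and 44.7 CPM in YPD. The call was lost without YM culture 6 (-2.48) or YPD culture 10 (-1.89). AAC1, another carrier of the family, rose (2.03 ± 0.26, adjusted p = 0.00062). HEM13, a heme synthesis enzyme that needs oxygen, fell (-2.23 ± 0.44, adjusted p = 0.0051). The hypoxic member COX5B was higher in YM in the fit with the culture set as a block (1.68 ± 0.39, adjusted p = 0.0063). SHH4 was the 1 listed gene whose strain difference itself differed between YM and YPD, by 3.39 ± 0.43 (adjusted p = 0.01, and 0.067 without petite YPD culture 10), with 293 and 215 CPM in untreated petite YM against 27.2 and 29.7 CPM in untreated grande YM. Its MCHM change in petite yeast also differed between YM and YPD, by -3.36 ± 0.41 (adjusted p = 0.0095, and 0.080 without the MCHM library of YM culture 14). In grande yeast the medium changed 3 of 88 untreated and 1 with MCHM, beside 2.6% and 0.427% of all genes. All were higher in YM, with AAC1 in both (1.89 and 1.77). The call of AAC1 with MCHM was lost without YM culture 5 or either YPD culture (adjusted p = 0.113, 0.106 and 0.158). In petite yeast with MCHM, 5 rose and 2 fell in YM, SHH3 (1.97) and HEM13 (-1.98) the most, beside 5.14% of all genes in either direction. The call of SHH3 was lost without YPD culture 2 (1.90), and that of HEM13 without that culture or either YM culture (-2.39 to -1.60). SDH4 itself had 245 and 116 CPM in untreated petite YM, against 279 and 85.1 CPM in untreated grande YM.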

How the data were processed

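Total RNA of 16 yeast samples was sequenced on an Illumina MiSeq from unstranded paired-end TruSeq libraries. The submitters' processing notes name CASAVA 1.7, TopHat2 2.0.12 and R64 (sacCer3), and the authors counted reads per gene with Rsubread. The deposited values are raw counts per gene. A second deposited table holds the authors' own DESeq2 (1.8.1) comparisons and was not used.

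Column names give the group and a culture number, which the labels do not, so cultures are named by that number. Counts were scaled by TMM and fitted with edgeR 4.0.16 (R 4.3.3) by quasi-likelihood, with a mean for each of 8 groups over all 16 libraries, after filterByExpr (minimum count 10, total 15). The 12 pairwise comparisons and 5 differences were tested over 5856 genes with Benjamini-Hochberg adjustment. The fold change uses a prior count of 0.125. Promoters were read from the R64 genome of RefSeq with SGD's annotation. The 43 members, the lists of other genes and the motifs were chosen with earlier results of these data known. Named were up to 6 called members per comparison, the paralog pairs, the highest and lowest member of each complex, up to 4 called genes of the other lists per comparison and HAP4; other members named were chosen after their values were seen. DESeq2 (1.42.0), 2 other scalings, no filter, a replicate block, a fit of only the groups compared and leaving out each library were the alternatives. The script was tested on simulated counts.

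The labels say that each culture was divided into treated and untreated parts, which pairs the MCHM comparisons. Deviations of libraries of the same culture number correlated at 0.334 to 0.523 across genes, and those of groups that share only the culture set at 0.026 to 0.735, with a median of 0.455. Culture numbers also fall into a lower and a higher set shared by all groups, which the labels do not explain.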

Additional observations from a re-analysis of the deposited data

Results flagged for a closer look

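In YPD the geometric mean of the cytochrome c genes was higher with MCHM in both petite cultures, by 0.76 and 1.33 on the log2 scale in cultures 2 and 10, and lower with MCHM in both grande cultures, by -0.41 and -0.16 in cultures 1 and 9. The difference between the strains for these 2 genes as a group was not tested. The mean gives both genes equal weight. In petite cultures 2 and 10, CYC7 had 11.4 and 7.63 CPM with MCHM and 4.52 and 0.950 CPM untreated, while CYC1 had 62.8 and 47.5 CPM with MCHM and 51.3 and 42.0 CPM untreated. In petite yeast the geometric mean of complex IV was lower with MCHM in both YM cultures, at -0.29 and -0.05 in cultures 6 and 14, and higher with MCHM in both YPD cultures, at 0.11 and 0.79 in cultures 2 and 10. This difference between media was not tested for the complex, and no complex IV gene passed the test of it singly.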

How the results depend on the processing

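Of 72 named fold changes, 1 reversed its sign under an alternative, COX5A between strains in untreated YM (-0.93 to 0.063 with single libraries left out, the highest without grande culture 5), and DESeq2's size factors in place of TMM gave counts of called members within 1.5 times in all 17 tests. The counts that moved are given by setting. With the replicate block, by culture for MCHM and by culture set elsewhere, petite against grande gave 2 in YPD with MCHM, 7 in untreated YM and 5 in YM with MCHM (beside 3.3%, 14.8% and 8.01% of all genes). The same block gave 12 for MCHM in petite YPD, 1 for MCHM in grande YM and 1 in petite YM (13.4%, 7.43% and 0.922%). For YM against YPD it gave 2 in untreated grande, 1 in treated grande, 21 in untreated petite and 5 in treated petite yeast (5.91%, 3.01%, 19.7% and 9.19%), and it moved no other count. The labels pair the MCHM comparisons only, so the block by culture set rests on the correlation of the sets in these data. DESeq2 gave 2 for petite against grande in YPD with MCHM, 6 for MCHM in petite YPD, 1 in petite YM, 1 for medium in untreated grande, 11 in untreated petite yeast, and 1 for the strain difference of MCHM in YPD (beside 2.91%, 12.3%, 1.65%, 4.99%, 16.8% and 6.62% of the genes with an adjusted p). A fit of only the groups compared gave 0 in untreated YM between strains and 0 for MCHM in petite YPD. Without the filter, MCHM in petite YM gave 1, and with library size alone, medium in treated petite yeast gave 1. Over all genes, the fit of only the groups compared called 8 between strains in untreated YM, where the main fit called 624, 240 for MCHM in petite YPD (546) and 381 for medium in untreated petite yeast (891). Library size alone moved the median of all genes to 0.33 and 0.31 between strains in untreated YM and in YM with MCHM, and the genes called over the whole table to 521 higher and 174 lower (main 326 and 298) and 210 and 40 (99 and 119). It gave 86 and 57 for MCHM in grande YPD (103 and 25), and for medium 70 and 71 in untreated grande (109 and 43) and 11 and 25 in treated grande yeast (13 and 12). At any fold, a rule added after seeing the data, medium in untreated petite yeast gave 5. Shares of all genes are not given for the member counts at any fold, without the filter or with library size alone. Those counts are therefore not read against all genes.

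Leaving out single libraries gave 0 called between strains in YPD with MCHM, 0 to 1 in untreated YM and 0 to 1 in YM with MCHM. It gave 0 to 3 for MCHM in petite YPD, 0 to 1 for medium in untreated grande, 2 to 7 in untreated petite and 0 in treated petite yeast. A lone library was then assumed to vary like the other groups. Shares of all genes are not set beside these counts, which show only how the calls depend on single libraries. The causes were not tested, beyond the loss of a library.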
